A study of Mus musculus with 3 samples.

Results

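Toll-like receptors, together with the proteins that deliver them to endosomes and relay their signals, were followed across the sorted myeloid cells of a mouse tumour. The 10 members were chosen by name from the 32285 genes counted: the receptors *Tlr3*, *Tlr11*, *Tlr7*, *Tlr9*, *Tlr2* and *Tlr4*, the trafficking protein *Unc93b1*, the adaptors *Ticam1* and *Myd88*, and the kinase *Irak4*. Toll-like receptors detect microbial molecules and nucleic acids. TLR2 and TLR4 sit at the cell surface and bind bacterial lipoproteins and lipopolysaccharide, whereas TLR3, TLR7, TLR9 and TLR11 work in endosomes, to which UNC93B1 carries them. TLR3 signals through TRIF, the product of *Ticam1*, the other receptors signal through MyD88, and TLR4 uses both adaptors. MyD88 recruits IRAK4, and both adaptors lead to NF-κB and to interferon regulatory factors. Among mouse dendritic cells, cDC1s are known for TLR3 and TLR11, and plasmacytoid cells for TLR7 and TLR9.

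The cells came from MCA205 LA-OVA tumours, a transplanted fibrosarcoma that carries the model antigen ovalbumin, taken on day 5 after injection. Tumours were pooled by the genotype of the host, WT, sGSN-/- (*sGsn-/-*, without secreted gelsolin) or sGSN-/-Clec9a-/- (*sGsn-/- Clec9a-/-*, which also lacks DNGR-1), and each pool gave 1 droplet-based library, so that no genotype had a replicate. Live CD45+ cells without lineage markers (B220, Cd3e, NK1.1, Ly6G, Siglec-F and Ly6D among them) that were CD11c+ MHCII+ CD88- were sorted as pre-cDCs, cDC1s (XCR1+) and cDC2s (Sirpa+). The matrices held 12763 barcodes and 176578136 UMIs (unique molecular identifiers, which count each captured transcript once) for WT, 8173 barcodes and 109270958 UMIs for *sGsn-/-*, and 9273 barcodes and 113411930 UMIs for *sGsn-/- Clec9a-/-*. A deposited table placed 2316, 1712 and 1778 of these barcodes, respectively, in 12 cDC1 clusters. Of all barcode sequences, 81 occurred in more than 1 library, 7 of them among the cDC1s.

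*Clec9a*, the targeted gene that these counts can check, was at 168 CPM (counts of the gene scaled to all UMIs of the group) in WT cDC1s, at 168 CPM in *sGsn-/-* cDC1s and at 0.0931 CPM, from 2 UMIs, in *sGsn-/- Clec9a-/-* cDC1s. The counts of *Gsn* include other transcripts of the gene and do not check the loss of secreted gelsolin. Cells of clusters 0 to 10, 5746 in all, carried 8 of 8 cDC1 markers at 10 CPM or more, with a summed level of 3812 CPM. Cluster 11, with 60 cells and a median mitochondrial share of 8.07%, was kept out of the comparisons. Clusters 4 and 1 form the early cDC1s (1332 cells, *S100a4* 389 CPM against 47.7 CPM in resting cells), and clusters 0, 2, 3, 5 and 6 the resting cDC1s (3499 cells). Cluster 7 (422 cells) carried *Isg15* at 1394 CPM against 84.7 CPM in resting cells, and cluster 9 (162 cells) carried *Nfkbiz* at 436 CPM against 20.2 CPM. Cluster 8 (255 cells) held *Ccr7* at 2001 CPM and *Il12b* at 1856 CPM, and cluster 10 (76 cells) held *Cxcl9* at 4832 CPM.

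Barcodes outside the deposited table were grouped by a marker at 3 UMIs or more and none of the other 2 at that level. The 4907 *Cd209a* barcodes carried 8 of 8 cDC2 markers at 10 CPM or more (2564 CPM summed), the 400 *Siglech* barcodes 8 of 8 plasmacytoid markers (5564 CPM, although the sort gate used B220 and Ly6D against such cells) and the 3429 *C1qa* barcodes 10 of 10 macrophage or monocyte markers (10015 CPM). A set of 3017 NK barcodes, with 6 of 6 NK markers (5963 CPM), served as the background for detection, although the sort gate used NK1.1 against such cells and NK cells may express some members themselves. Precursor markers summed to 999 CPM in *Siglech* barcodes, 212 CPM in early cDC1s and 189 CPM in resting cDC1s. Markers of T cells and neutrophils summed to 3.52 and 0.322 CPM in cDC1s, with *S100a9* at 0.

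UMIs were summed per library and group, and the 3 libraries served as replicates of a cell state, so that their spread includes any difference between genotypes. Groups were compared across all genes with edgeR's quasi-likelihood test and Benjamini-Hochberg adjustment at a threshold of 0.05, and all adjusted p-values and log2 fold changes come from that fit. The deposited clusters came from these counts, so a p-value describes how alike the libraries were and not whether a cluster exists. The comparisons of states share the resting cells as the control, apart from that of cluster 8 with cluster 10. All comparisons of cell classes share the cDC1s. Results of comparisons with a shared control are therefore given side by side without a measure of their overlap. UMIs were not scaled to transcript length, and levels are compared within a gene, not between genes.

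Low counts kept *Tlr4*, *Tlr7* and *Tlr9* out of the tests among cDC1 states, which leaves 7 of the 10 members there. In early cells 1 member was higher and 4 were lower than in resting cells, where 16.1% of the 8536 genes tested were higher and 18.1% lower. In cluster 7, 1 was higher and 1 lower, against 11.8% and 6.10% of all genes. Cluster 9 had 0 members past the threshold in edgeR, 1 at an unadjusted p under 0.05 and 1 by DESeq2, and 3.99% of all genes were higher and 1.32% lower there. In cluster 8, 1 member was higher and 4 lower, against 25.7% and 24.0% of all genes. Cluster 10 had 0 members higher and 3 lower (8.53% and 6.53% of all genes); 4 members were at an unadjusted p under 0.05 and DESeq2 called 3, all lower. Between these clusters, 0 members were higher and 2 lower in cluster 8 than in cluster 10, with 2 at an unadjusted p under 0.05 and 2 by DESeq2, beside 15.7% and 12.5% of all genes.

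The median log2 fold change of the 7 members was −0.58 in early cells, and −0.15, −0.07, −0.90 and −0.78 in clusters 7, 9, 8 and 10. The median over all genes tested was −0.01, −0.02, −0.02, −0.05 and −0.04 in the same order. Member medians moved when 1 library was left out. Without *sGsn-/- Clec9a-/-*, where 8 members were tested, early cells were at −0.34 and cluster 9 at 0.19. Cluster 7 was at 0.02 without WT, and cluster 10 at −0.48 without *sGsn-/-*. With reassigned cells, where 8 members were also tested, clusters 7 and 10 were at 0.16 and −0.43. Scaling by library size without TMM factors moved the all-gene median to −0.12 in cluster 7 and −0.24 in cluster 8, and from 0.02 to −0.18 between clusters 8 and 10. With that scaling the higher genes fell from 65.8% to 45.4% of those called in cluster 7, from 51.7% to 37.1% in cluster 8 and from 55.7% to 37.2% between clusters 8 and 10. No member past the threshold changed direction with it.

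**Figure D1:**
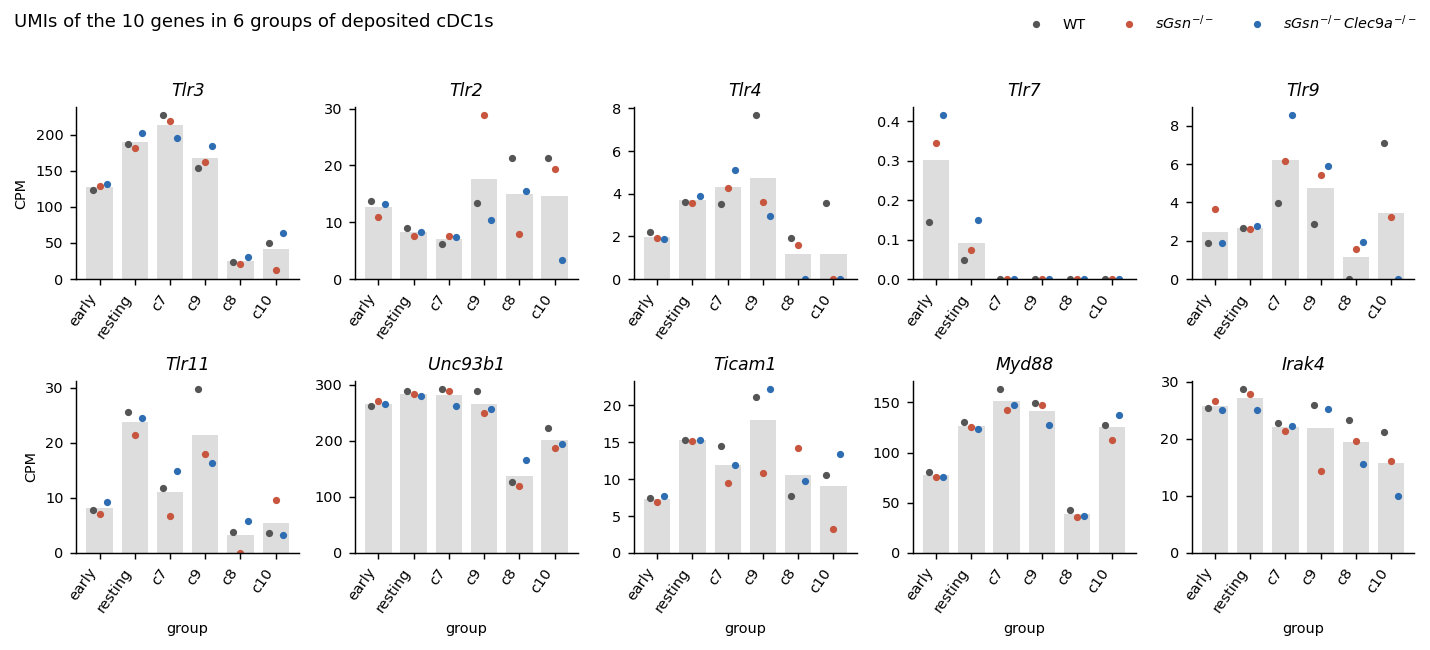
Level of each of the 10 members in CPM (y axis, from 0) in the 6 groups of cDC1s, with bars for the mean of 3 libraries and points for the libraries. *Tlr3* lay between 182 and 203 CPM in resting cells and between 12.9 and 63.6 CPM in clusters 8 and 10.

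*Tlr3* (ENSMUSG00000031639, chromosome 8, 45395665 to 45411080, minus strand, overlapping *Gm45542*) encodes the endosomal receptor for double-stranded RNA. In resting cDC1s it was at 187 CPM in WT, 182 in *sGsn-/-* and 203 in *sGsn-/- Clec9a-/-*. The levels in cluster 8 were 23.3, 20.5 and 31.0 CPM in the same order of libraries, and those in cluster 10 were 49.6, 12.9 and 63.6 CPM. Every library of both clusters lay below every resting library. The fall was −2.82 on the log2 scale in cluster 8 (adjusted p = 2.54e-12) and −2.21 in cluster 10 (adjusted p = 1.02e-07), each in 3 of 3 libraries. Between clusters 8 and 10 the log2 fold change was −0.61 (adjusted p = 0.201, lower in 2 of 3 libraries), and *Tlr3* passed the threshold there without doublets (−1.20) and with reassigned cells (−1.29).

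Early cells held *Tlr3* at 123, 129 and 132 CPM, below all resting libraries, with a log2 fold change of −0.58 (adjusted p = 0.000466, 3 of 3 libraries). Their clusters differed, at 77.5 CPM in cluster 4 and 157 CPM in cluster 1. Cluster 7 was at 227, 219 and 195 CPM and cluster 9 at 155, 162 and 185 CPM, both overlapping the resting range. Neither passed the threshold, with log2 fold changes of 0.27 (adjusted p = 0.140, higher in 2 of 3 libraries) and −0.18 (adjusted p = 0.573, lower in 3 of 3). In cluster 7 *Tlr3* did pass it with the library as a block (0.28) and without the *sGsn-/- Clec9a-/-* library (0.38). From the highest level, 244 CPM in cluster 6, to the lowest, 24.9 CPM in cluster 8, the order was 6, 2, 7, 3, 0, 9, 1, 5, 4, 10 and 8. Cluster 6, which was also highest in *Tlr4*, *Tlr11*, *Unc93b1*, *Ticam1* and *Irak4*, had a median of 8530.5 UMIs per cell against 13824 to 14925 in the other resting clusters, and the part of depth in its rank was not tested. In 5 of the 10 neighbouring pairs the gap was within 1 SD of the libraries, and the widest gap on the way down parted cluster 5 (132 CPM) from cluster 4.

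*Tlr11* (ENSMUSG00000051969, chromosome 14, 50357914 to 50363663, plus strand) encodes the endosomal receptor for parasite profilin. Its level was 25.7, 21.4 and 24.6 CPM in resting cDC1s, given here and below for WT, *sGsn-/-* and *sGsn-/- Clec9a-/-* in turn. Early cells were at 7.86, 7.09 and 9.34 CPM and cluster 7 at 11.8, 6.63 and 14.8 CPM. All libraries of both groups lay below the resting ones. *Tlr11* fell by 1.58 on the log2 scale in early cells (adjusted p = 1.81e-07) and 1.03 in cluster 7 (adjusted p = 0.00178), each in 3 of 3 libraries, and without the WT library cluster 7 no longer passed the threshold (−1.04).

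Clusters 8 and 10 were also lower than resting cells in *Tlr11*, with levels of 3.88, 0 and 5.82 CPM for cluster 8 and of 3.54, 9.67 and 3.35 CPM for cluster 10. These levels rest on 7 and 5 UMIs, and a count of 0 in the *sGsn-/-* library sets the lowest value. The log2 fold change was −3.06 in cluster 8 (adjusted p = 4.67e-06) and −2.11 in cluster 10 (adjusted p = 0.0194), lower in 3 of 3 libraries in each. In cluster 10 *Tlr11* no longer passed without the WT library (−1.77), without the *sGsn-/- Clec9a-/-* library (−1.82) or without doublets (−1.77). Cluster 9, at 29.8, 18.0 and 16.3 CPM, overlapped the resting range (log2 fold change −0.07, adjusted p = 0.945, lower in 2 of 3 libraries). Clusters 8 and 10 overlapped each other (−0.96, adjusted p = 0.543, lower in 1 of 3 libraries). That direction turned without the *sGsn-/-* library. Cluster 6 stood above all other clusters with 40.0 CPM, beyond 1 SD of cluster 2 at 25.7 CPM, and 7 of the 10 neighbouring pairs in the order 6, 2, 0, 3, 9, 5, 7, 1, 4, 10 and 8 were within 1 SD.

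*Tlr2* (ENSMUSG00000027995, chromosome 3, 83836272 to 83841767, minus strand), the surface receptor for lipoproteins, was the member that passed the threshold as higher in early cells and in cluster 8. Among early cells the mean was 26.7 CPM in cluster 4 but 4.54 CPM in cluster 1. Clusters 9 and 10, at 17.5 and 14.6 CPM, were about as high as cluster 8, at 14.9 CPM. Resting cDC1s held 8.90, 7.58 and 8.29 CPM. In early cells the level was 13.7, 10.9 and 13.3 CPM, above all resting libraries, and in cluster 8 it was 21.3, 7.87 and 15.5 CPM, where the *sGsn-/-* library overlapped the resting range. Log2 fold changes were 0.60 in early cells (adjusted p = 0.0127) and 0.97 in cluster 8 (adjusted p = 0.0136), each higher in 3 of 3 libraries. Neither value held under all alternatives. The early cells no longer passed the threshold without the WT library (0.60), without the *sGsn-/- Clec9a-/-* library (0.57), without doublets (0.13) or with reassigned cells (0.37), and cluster 8 no longer passed it without the WT library (0.60).

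Markers of macrophages and monocytes were also higher in cluster 8 and in early cells than in resting cells. In cluster 8 their list summed to 285 CPM with 6 of 10 markers at 10 CPM or more, against 56.2 CPM and 1 of 10 in resting cells. It reached 620.0 CPM in the WT library of cluster 8, the library with the highest *Tlr2*. In the others it was alike, at 90.5 and 91.2 CPM, although their *Tlr2* levels were 7.87 and 15.5 CPM. *Apoe* was the most abundant marker, at 109 CPM over the cluster. *Adgre1* and *Fcgr1* were at 0 in the *sGsn-/- Clec9a-/-* library and *Ms4a7* in the *sGsn-/-* library. NK markers summed to 66.4 CPM in cluster 8 against 18.1 CPM in resting cells, and to 126 CPM in its *sGsn-/-* library. In early cells the macrophage list was at 113 CPM with 5 of 10 markers at 10 CPM or more, led by *Ly6c2* at 24.4 CPM. The sort gate took CD88- cells, and the part of macrophages or monocytes in the level of *Tlr2* was not tested.

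The early clusters differed most in *Tlr2*. Cluster 4 held 28.0, 23.3 and 28.9 CPM, the highest of all clusters, and cluster 1 held 5.12, 4.24 and 4.26 CPM, the lowest. The doublet rule removes 146 of the 512 cells of cluster 4, and without doublets early cells were at 8.46 CPM, from 124 UMIs, beside 8.04 CPM in resting cells and 18.3 CPM in cluster 9. Cluster 9 was at 13.4, 28.8 and 10.4 CPM, above the resting libraries but short of the threshold (0.99, adjusted p = 0.0873, 3 of 3 libraries), which it did pass by DESeq2 (1.04), without doublets (1.09) and with reassigned cells (1.37). Cluster 10, from 3.35 to 21.3 CPM, and cluster 7, from 6.14 to 7.58 CPM, gave log2 fold changes of 0.79 (adjusted p = 0.352, higher in 2 of 3 libraries) and −0.15 (adjusted p = 0.784, lower in 3 of 3). The direction in cluster 7 turned without the WT library (0.02). In the order 4, 9, 8, 10, 6, 2, 0, 5, 7, 3 and 1, 8 of 10 neighbouring pairs were within 1 SD, the exceptions being clusters 2 and 0 and clusters 3 and 1. Clusters 8 and 10 did not part in *Tlr2* (0.17, adjusted p = 0.846, higher in 2 of 3 libraries), and that value was −0.27 without the *sGsn-/- Clec9a-/-* library and −0.03 with library size alone.

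The remaining receptors gave few UMIs in cDC1s. *Tlr4* (ENSMUSG00000039005, chromosome 4, 66827584 to 66930284, plus strand), the receptor for lipopolysaccharide, gave 254 UMIs over clusters 0 to 10, from 6.13 CPM in cluster 6 to 1.17 CPM in cluster 8. *Tlr9* (ENSMUSG00000045322, chromosome 9, 106222598 to 106226883, plus strand), which binds CpG DNA, gave 224 UMIs, from 6.22 CPM in cluster 7 to 1.17 CPM in cluster 8. Low counts kept both out of the tests among states. With all genes kept whatever their counts, *Tlr4* passed the threshold in early cells (−0.90) and *Tlr9* in cluster 7 (1.23), the latter also with reassigned cells (1.13). *Tlr4* was lower in all early libraries (1.87 to 2.18 CPM) than in resting ones (3.57 to 3.89 CPM), as it was in clusters 8 (at most 1.94 CPM) and 10 (at most 3.54 CPM), with 9 of its 10 neighbouring clusters within 1 SD. The levels of *Tlr4* in clusters 8 and 10 rest on 4 UMIs and 1 UMI. *Tlr9* was at 3.95, 6.16 and 8.55 CPM in cluster 7 against 2.65, 2.60 and 2.76 CPM in resting cells, without overlap. Cluster 9 also lay above the resting range of *Tlr9* (2.88 to 5.92 CPM, from 10 UMIs) and cluster 8 below it (0 to 1.94 CPM, from 3 UMIs). All 10 neighbouring pairs of *Tlr9* in the order 7, 9, 2, 10, 4, 1, 0, 3, 5, 6 and 8 were within 1 SD. *Tlr7* (ENSMUSG00000044583, chromosome X, 167304929 to 167330558, minus strand), the receptor for single-stranded RNA, gave 9 UMIs over 5746 cells, 5 in early and 4 in resting cells. It was at 0 in clusters 7, 8, 9 and 10, where no fold is given.

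*Unc93b1* (ENSMUSG00000036908, chromosome 19, 3935186 to 3949340, plus strand) encodes the membrane protein that moves nucleic acid receptors from the endoplasmic reticulum to endosomes. Resting cDC1s held it at 289, 284 and 279 CPM. Cluster 8 was at 127, 120 and 165 CPM and cluster 10 at 223, 187 and 194 CPM, all below the resting libraries and without overlap between these clusters. *Unc93b1* fell by 0.90 on the log2 scale in cluster 8 (adjusted p = 1.37e-07) and 0.52 in cluster 10 (adjusted p = 0.00459), each in 3 of 3 libraries. In cluster 10 the threshold was no longer passed without the WT library (−0.52), without the *sGsn-/-* library (−0.48) or with reassigned cells (−0.29). Cluster 8 was also lower than cluster 10 (−0.38, adjusted p = 0.0450, 3 of 3 libraries). That difference no longer passed without the WT library (−0.27), without the *sGsn-/-* library (−0.33), without doublets (−0.39) or with all genes kept in the test (−0.41).

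Elsewhere *Unc93b1* stayed near its resting level. It was at 261, 271 and 266 CPM in early cells (−0.10, adjusted p = 0.455, lower in 3 of 3 libraries), at 292, 288 and 262 CPM in cluster 7 (0.09, adjusted p = 0.597, higher in 2 of 3) and at 288, 249 and 258 CPM in cluster 9 (−0.08, adjusted p = 0.770, lower in 3 of 3). With library size alone the value of cluster 7 was −0.02. Over the clusters the level fell from 319 CPM in cluster 6 to 137 CPM in cluster 8 in the order 6, 2, 3, 0, 7, 1, 9, 4, 5, 10 and 8. Neighbours from cluster 3 down to cluster 4 were within 1 SD of each other, and the steps from 6 to 2, 2 to 3, 4 to 5, 5 to 10 and 10 to 8 exceeded it.

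*Ticam1* (ENSMUSG00000047123, chromosome 17, 56269319 to 56276786, minus strand) encodes TRIF, the adaptor of TLR3. It was at 15.3, 15.2 and 15.3 CPM in resting cDC1s and at 7.42, 6.91 and 7.68 CPM in early cells, without overlap. The log2 fold change in early cells was −1.06 (adjusted p = 8.13e-06, 3 of 3 libraries). In the other states *Ticam1* did not pass the threshold. The values were −0.24 in cluster 7 (adjusted p = 0.426, lower in 3 of 3 libraries), 0.32 in cluster 9 (adjusted p = 0.578, higher in 2 of 3), −0.29 in cluster 8 (adjusted p = 0.389, lower in 3 of 3) and −0.78 in cluster 10 (adjusted p = 0.295, lower in 3 of 3). Levels in cluster 8 were 7.75, 14.2 and 9.70 CPM and in cluster 10 10.6, 3.22 and 13.4 CPM, below the resting libraries in each case. All 10 neighbouring pairs in the order 6, 9, 3, 5, 2, 0, 7, 8, 10, 4 and 1 were within 1 SD. For cluster 8 against cluster 10 *Ticam1* gave 0.49 (adjusted p = 0.542, higher in 1 of 3 libraries), and −0.32 without the *sGsn-/-* library.

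*Myd88* (ENSMUSG00000032508, chromosome 9, 119335934 to 119341411, minus strand, overlapping *Slc22a14* and *Acaa1a*), the adaptor of the other receptors, parted clusters 8 and 10. Resting cDC1s held 131, 126 and 123 CPM. Cluster 8 was at 42.6, 36.2 and 36.9 CPM, far below them, whereas cluster 10 was at 128, 113 and 137 CPM, around the resting range. *Myd88* gave −1.52 on the log2 scale in cluster 8 (adjusted p = 7.79e-11, 3 of 3 libraries) and −0.03 in cluster 10 (adjusted p = 0.935, lower in 2 of 3 libraries). The direct comparison of cluster 8 with cluster 10 gave −1.49 (adjusted p = 1.37e-07, 3 of 3 libraries), without overlap. The small value in cluster 10 changed sign without the WT library (0.05), without the *sGsn-/-* library (0.03), by DESeq2 (0.01) and with reassigned cells (0.05).

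Early cells were lower in *Myd88* and cluster 7 was higher. Early cells held 80.2, 75.5 and 75.8 CPM (−0.71, adjusted p = 2.32e-07, 3 of 3 libraries), below all resting libraries, and the level was 94.3 CPM in cluster 4 and 67.4 CPM in cluster 1. Cluster 7 held 163, 143 and 147 CPM (0.36, adjusted p = 0.00367, 3 of 3 libraries), above all resting libraries. That rise no longer passed the threshold with library size alone (0.26), without the WT library (0.33) or without the *sGsn-/-* library (0.38). Cluster 9 was at 150, 148 and 127 CPM, its lowest library within the resting range (0.18, adjusted p = 0.398, higher in 3 of 3). The order was 7, 6, 9, 2, 10, 3, 0, 5, 4, 1 and 8, with 6 of 10 neighbouring pairs within 1 SD and gaps beyond it from cluster 2 to 10, 5 to 4, 4 to 1 and 1 to 8.

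*Irak4* (ENSMUSG00000059883, chromosome 15, 94543643 to 94581815, plus strand, overlapping *Twf1*), the kinase recruited by MyD88, passed the threshold in none of the 6 comparisons of states. Resting cDC1s held 28.7, 27.9 and 25.0 CPM. Cluster 8 was at 23.3, 19.7 and 15.5 CPM and cluster 10 at 21.3 and 16.1 CPM in WT and *sGsn-/-* and lower still in *sGsn-/- Clec9a-/-*, below every resting library. The log2 fold changes were −0.24 (adjusted p = 0.279) and −0.81 (adjusted p = 0.0993), each lower in 3 of 3 libraries, and in cluster 8 library size alone brought *Irak4* past the threshold (−0.43). Early cells, cluster 7 and cluster 9 gave −0.09 (adjusted p = 0.526, lower in 2 of 3 libraries), −0.20 (adjusted p = 0.324, lower in 3 of 3) and −0.24 (adjusted p = 0.591, lower in 2 of 3). Cluster 6 was highest at 37.0 CPM, beyond 1 SD of cluster 2 at 29.5 CPM. Of the 10 neighbouring pairs in the order 6, 2, 3, 1, 4, 0, 7, 5, 9, 8 and 10, 8 were within 1 SD, and clusters 0 and 7 were the other exception. Between clusters 8 and 10 *Irak4* gave 0.57 (adjusted p = 0.315, higher in 3 of 3 libraries).

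The share of cells with at least 1 UMI showed the same members from another side. *Tlr3* was detected in 80.1% of resting cDC1s (2801 of 3499, exact Clopper-Pearson 95% interval 78.7 to 81.4), 12.2% of cluster 8 (8.41 to 16.8) and 25.0% of cluster 10 (15.8 to 36.3). NK barcodes showed *Tlr3* in 5.37% (4.59 to 6.23) at a median of 8781 UMIs, beside medians of 13930 in resting cells, 10867 in cluster 8 and 11132.5 in cluster 10. Cells with at least 4661 UMIs, the 5th percentile of cDC1s, were then thinned to that depth, and cells below it were left out, 141 of 3499 in resting cells, 63 of 255 in cluster 8, 6 of 76 in cluster 10 and 559 of 3017 NK barcodes. In this smaller set of cells the shares were 53.5%, 6.25% and 12.9%, against 2.89% in NK barcodes. The thinned interval of cluster 8 for *Tlr3*, 3.27 to 10.7%, overlapped that of the NK barcodes, 2.26 to 3.63%. *Tlr11* was found in 26.2% of resting cells (24.7 to 27.6) and 2.75% of cluster 8 (1.11 to 5.57), the latter overlapping the NK background of 1.19% (0.837 to 1.65). Thinned, these *Tlr11* shares were 10.3%, 1.04% and 0.285%, and the intervals of cluster 8 and the NK barcodes overlapped.

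*Myd88* was detected in 73.8% of resting cells (72.3 to 75.3) and 25.1% of cluster 8 (19.9 to 30.9), the latter overlapping the 23.5% of NK barcodes (22.0 to 25.1), and in 43.2%, 14.1% and 11.3% after thinning. NK cells use MyD88 and held *Myd88* at 27.2 to 31.5 CPM, so this overlap cannot tell whether cluster 8 was at background, which was not tested. For *Unc93b1* the shares were 94.3% in resting cells (93.5 to 95.1), 52.9% in cluster 8 (46.6 to 59.2) and 22.6% in NK barcodes (21.1 to 24.1), and 71.6%, 41.7% and 11.8% after thinning. *Unc93b1* in cluster 8 was above the share of NK barcodes. *Tlr2* was found in 9.72% of resting cells (8.76 to 10.7), 11.4% of cluster 8 (7.75 to 15.9) and 5.14% of NK barcodes (4.38 to 5.99). Thinning brought *Tlr2* to 3.78%, 3.65% and 2.07%, where cluster 8 overlapped both others. *Tlr7* was found in 0.157% of cDC1s (0.0716 to 0.297), overlapping the 0.298% of NK barcodes (0.136 to 0.566), and in 0 of 255 cells of cluster 8, which by the rule of 3 counts allows a share of cells with a UMI of up to 1.18%. Thinned, *Tlr7* was in 0.0366% of cDC1s and 0.163% of NK barcodes. These intervals cover counting error only.

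Other genes of the pathway were set beside the members in 5 lists of 54 genes: other Toll-like receptors, co-receptors, adaptors and proximal signalling, endosomal trafficking and processing, and inhibitors. In cluster 8, 9 of 17 adaptor and signalling genes tested were higher and 2 lower than in resting cells, where 25.7% of all genes were higher and 24.0% lower, shares that apply to each list of this cluster. *Traf3* (2.33) and *Traf6* (1.87), ubiquitin ligases downstream of the adaptors, and *Irf7* (1.87), a transcription factor of interferon genes, led the rises on the log2 scale. *Tirap* (−1.34), the bridge from TLR2 and TLR4 to MyD88, and *Pik3ap1* (−1.01) were lower, and *Tirap* no longer passed without the WT library (−0.89). Of 7 inhibitors, 4 were higher, led by *Tank* (3.51), *Nfkbia* (3.21) and *Tnfaip3* (2.20), and 1 was lower, *Sigirr* (−1.18). Among 11 endosomal genes 5 were higher and 2 lower. The protease gene *Lgmn*, whose product trims endosomal receptors, rose most (4.59), from 11.6 to 230.3 CPM, and *Pld4* (−1.48) and the chaperone gene *Hsp90b1* (−0.97) fell. All genes named here moved their way in 3 of 3 libraries.

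Co-receptors of cluster 8 were divided, 1 higher and 2 lower of 5: *Ly96*, the MD-2 partner of TLR4, rose (1.69) and *Cd180* (−1.59) and *Ly86* (−0.60) fell. *Ly96* no longer passed without the *sGsn-/-* library (1.17), and neither did *Ly86* (−0.34). Neither of the 2 other Toll-like receptors tested passed in cluster 8 by edgeR, nor by DESeq2. List medians in cluster 8 were 0.68 for adaptors and signalling, 0.28 for endosomal genes, 1.63 for inhibitors, −0.60 for co-receptors and −0.17 for other receptors, beside −0.05 for all genes. With library size alone they were 0.49, 0.09, 1.44, −0.78 and −0.36, beside −0.24 for all genes.

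Cluster 10, where 8.53% of all genes were higher and 6.53% lower, had 5 of 17 adaptor and signalling genes higher and 0 lower by edgeR and by DESeq2, with *Irf7* at 1.70. Its inhibitors were higher in 4 of 7, led by *Socs1* (3.50), from 15.3 to 178 CPM, and *Nfkbia* (1.62). Of 11 endosomal genes 3 were higher and 1, *Pld4* (−0.86), was lower. *Lgmn* (1.63) was first of the former and no longer passed without the WT library (1.31) or without doublets (1.56). *Cd180* fell here too (−1.93), and 1 further co-receptor, *Ly86* (0.49), was higher but did not pass without any 1 of the 3 libraries (0.55, 0.40 and 0.54). These genes held their direction in 3 of 3 libraries. The list medians were 0.23, 1.08, 0.02, −1.23 and 0.13 for adaptors, inhibitors, endosomal genes, co-receptors and other receptors.

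Set against each other, cluster 8 exceeded cluster 10 in *Traf6* (2.63), *Lgmn* (2.96), *Tank* (2.42) and *Nfkbia* (1.59), and cluster 10 exceeded cluster 8 in *Socs1* (−1.88), *Pik3ap1* (−1.49) and *Ly86* (−1.08), each in 3 of 3 libraries. Of the 17 adaptor and signalling genes 5 were higher and 3 lower in cluster 8, of the 11 endosomal genes 3 and 3, of the 7 inhibitors 3 and 1, and of the 5 co-receptors 1 and 1. Medians were 0.39, 0.42, 1.01 and 0.35 in that order, beside 0.02 for all genes, of which 15.7% were higher and 12.5% lower.

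In cluster 7 *Irf7* rose from 113 to 1128 CPM (3.42), and *Pik3ap1* (1.02) was the other of 17 signalling genes that was higher, against 2 that were lower, beside 11.8% and 6.10% of all genes. Endosomal genes were higher in 3 of 11, led by *Lgmn* (1.59), and lower in 0 by edgeR and in 1 by DESeq2. *Socs1* (1.41) and *Nfkbia* (0.50) were higher among the inhibitors and *Sigirr* (−0.71) was lower. *Cd14*, which passes lipopolysaccharide to TLR4, was lower (−0.80), but not past the threshold without the *sGsn-/-* library (−0.73) or with reassigned cells (−0.14). The medians of the adaptor list, 0.04, and of the endosomal list, 0.08, turned to −0.06 and −0.02 with library size alone.

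In cluster 9, 3 of 7 inhibitors were higher and 0 lower by edgeR and by DESeq2, with a list median of −0.06 beside −0.02 for all genes, of which 3.99% were higher and 1.32% lower, and of 5 co-receptors 1 was higher and 1 lower. *Nfkbia* rose from 177 to 1919 CPM (3.45), *Tnfaip3* from 41.4 to 403 CPM (3.28) and *Tank* from 14.6 to 32.4 CPM (1.17), each in 3 of 3 libraries. *Tank* no longer passed without the WT library (1.10). These are feedback regulators of NF-κB signalling. The paper lists *Tnfaip3* among the genes enriched in this cluster, so its call, and the count that holds it, are not independent of the clustering. *Cd14* was lower (−1.64) and *Cd36*, a lipid receptor that works with TLR2, was higher (0.76). *Cd14* no longer passed with reassigned cells (−0.83), and *Cd36* without the WT library (0.97), without the *sGsn-/-* library (0.65) or with reassigned cells (0.62). Of the 17 adaptor and 11 endosomal genes tested, 0 passed by edgeR and 0 by DESeq2.

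Early cells, where 16.1% of all genes were higher and 18.1% lower, had 8 of 17 adaptor and signalling genes lower by edgeR and 0 higher by edgeR and by DESeq2, led by the ubiquitin ligase gene *Peli1* (−1.28). Co-receptors were lower in 3 of 5, with *Cd180* at −1.69 and *Cd36* at −1.33, and higher in 0 by edgeR and in 1 by DESeq2. *Tlr12*, a partner of TLR11 in profilin recognition, rose from 2.86 to 13.2 CPM (2.21), against the fall of *Tlr11*, and *Tlr13*, a receptor for bacterial ribosomal RNA, was lower (−0.91). Of 11 endosomal genes 4 were higher and 3 lower. *Lgmn* led them (2.27), from 11.6 to 55.1 CPM, followed by *Slc15a3* (0.66) and *Ctss* (0.56). Inhibitors were higher in 2 of 7 and lower in 1, *Sigirr* (−0.43), which did not pass without the WT library (−0.39). *Nfkbia* (0.66) did not pass with reassigned cells (0.31). All of these were in 3 of 3 libraries.

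**Figure D2:**
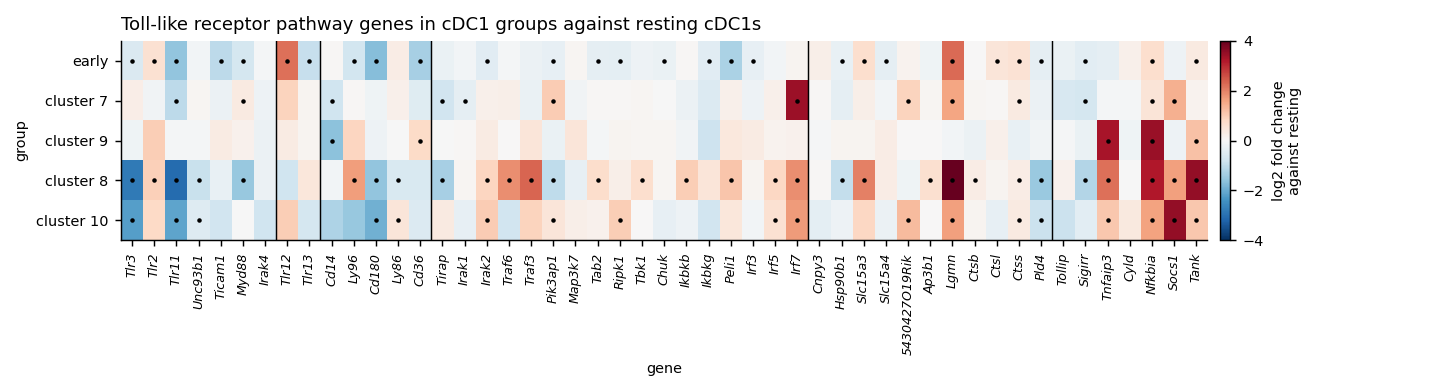
Heat map of log2 fold changes against resting cDC1s (colour, limited to 4 either way) for 49 genes, the 7 members tested and the pathway lists, with a horizontal band each for early cells and clusters 7, 9, 8 and 10, genes along the x axis and black dots for adjusted p under 0.05. *Tlr3* was at −2.82 in cluster 8 where *Lgmn* was at 4.59, and with library size alone the median of all genes in that cluster shifted from −0.05 to −0.24.

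Cell classes of the same sorts were compared with all cDC1s of clusters 0 to 10, and here 10 of 10 members were tested among 13224 genes. In *Cd209a* barcodes 3 members were higher and 6 lower, where 29.5% and 25.8% of all genes were. *Siglech* barcodes also had 3 higher and 6 lower, against 21.6% and 23.3% of all genes, and *C1qa* barcodes 3 higher and 5 lower, against 32.7% and 30.5%. A gene entered these tests when any class held enough UMIs, and *Tlr7*, with 9 UMIs in cDC1s, entered through the other classes, so that it could hardly be counted as lower. It is 1 of the 3 higher members in each class. The median over the members was −0.53, −0.68 and −0.25 in this order, and over all genes 0.01, −0.02 and 0.01. Library size alone moved the all-gene median to 0.16, 0.32 and 0.17, and the higher genes from 53.4% to 69.1% of those called for *Cd209a*, from 48.2% to 77.1% for *Siglech* and from 51.7% to 65.1% for *C1qa* barcodes. With that scaling the median over the members was −0.39, −0.33 and −0.10. Members higher and lower were then 4 and 5 for *Cd209a*, 4 and 5 for *Siglech* and 3 and 4 for *C1qa* barcodes.

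*Tlr3* was at 169, 161 and 180 CPM in cDC1s. It was between 14.0 and 18.1 CPM in *Cd209a*, between 24.3 and 38.6 CPM in *Siglech* and between 19.3 and 23.0 CPM in *C1qa* barcodes, and between 7.88 and 18.7 CPM in NK barcodes. No library of these classes came near the cDC1s of clusters 0 to 10 as a group. By state, cluster 8, from 20.5 to 31.0 CPM, overlapped the *Siglech* and *C1qa* barcodes. Cluster 10, from 12.9 to 63.6 CPM, overlapped all of these classes. The other cDC1 states, at 123 CPM or more, overlapped none. Against the whole group *Tlr3* fell on the log2 scale by 3.50 for *Cd209a* (adjusted p = 1.39e-10), 2.74 for *Siglech* (adjusted p = 7.42e-08) and 3.19 for *C1qa* barcodes (adjusted p = 2.02e-10), each in 3 of 3 libraries. Shares of barcodes with *Tlr3* were 72.1% in cDC1s, 12.3%, 12.5% and 19.2% in the 3 classes and 5.37% in NK barcodes, and 47.5%, 4.52%, 5.83%, 6.99% and 2.89% after thinning. The median depths were 13545.5, 13222, 9815.5, 15955 and 8781 UMIs.

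*Tlr11* followed *Tlr3*, at 20.2, 15.2 and 19.4 CPM in cDC1s against at most 1.98 CPM in *Cd209a*, 5.61 CPM in *Siglech* and 1.51 CPM in *C1qa* barcodes. The log2 fold changes were −3.80 (adjusted p = 8.42e-10), −3.04 (adjusted p = 1.59e-05) and −3.92 (adjusted p = 6.00e-10), lower in 3 of 3 libraries in each class. NK barcodes held between 0.733 and 2.31 CPM of *Tlr11*, a range that the *Cd209a* and *C1qa* barcodes did not exceed. Among the members *Tlr3* and *Tlr11* were the receptors highest, of these 4 myeloid classes, in the cDC1s of clusters 0 to 10 as a group. By state, *Tlr11* in cluster 8 (0 to 5.82 CPM, from 7 UMIs) overlapped the *Cd209a*, *Siglech* and *C1qa* barcodes. In cluster 10 (3.35 to 9.67 CPM, from 5 UMIs) it overlapped the *Siglech* barcodes, and the other states overlapped none of these classes.

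*Tlr2* ran the other way. It was at 10.4, 9.07 and 9.51 CPM in cDC1s, at 97.0, 97.0 and 100.3 CPM in *Cd209a* barcodes and at 220, 208 and 204 CPM in *C1qa* barcodes, without overlap. The log2 fold change was 3.20 for *Cd209a* (adjusted p = 2.10e-10) and 4.29 for *C1qa* barcodes (adjusted p = 4.35e-12), each in 3 of 3 libraries. *Siglech* barcodes held 37.0, 14.5 and 31.6 CPM (1.18, adjusted p = 0.00209, 3 of 3 libraries), which no longer passed without the WT library (0.92). Macrophage or monocyte markers summed to 435 CPM in *Cd209a* barcodes, led by *Csf1r* at 122 CPM, to 1345 CPM in *Siglech* barcodes, of which *Ly6c2* made up 1244 CPM, and to 85.6 CPM in cDC1s. Of the 10 markers 6, 4 and 4 were at 10 CPM or more and none was at 0, and their part in the level of *Tlr2* was not tested. *Tlr2* was detected in 59.4% of *Cd209a*, 83.3% of *C1qa* and 16.5% of *Siglech* barcodes, 10.5% of cDC1s and 5.14% of NK barcodes, and after thinning in 31.2%, 55.3%, 10.6%, 4.01% and 2.07%.

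*Tlr7* marked the *Siglech* barcodes, with 47.1, 39.2 and 54.0 CPM against 0.0613, 0.128 and 0.187 CPM in cDC1s. The log2 fold change was 8.22 (adjusted p = 4.51e-11, 3 of 3 libraries), and 32.5% of *Siglech* barcodes (27.9 to 37.3) held a UMI, or 19.7% after thinning. *C1qa* barcodes followed with 6.58, 2.80 and 5.75 CPM (5.26, adjusted p = 1.09e-08), and *Cd209a* barcodes with 0.663, 1.11 and 0.988 CPM (2.69, adjusted p = 0.000628), each in 3 of 3 libraries. The cDC1 level in these ratios rests on 9 UMIs, and as *Tlr7* entered the test through the classes that hold it, a fall was hardly possible. With all genes kept whatever their counts it passed in each class as well (8.19, 5.26 and 2.69). *Tlr9* was also higher in *Siglech* barcodes, at 6.35, 7.25 and 6.32 CPM against 2.54, 3.19 and 3.08 CPM (0.83, adjusted p = 0.0260, 3 of 3 libraries). This rise rests on 33 UMIs. It no longer passed without the WT library (0.75) or without the *sGsn-/-* library (0.84), nor with looser marker rules (−0.16 and 0.24) or with fewer than 3 UMIs of *Xcr1* and *Clec9a* (0.71).

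In the other classes *Tlr9* was lower in *Cd209a* barcodes (2.12, 2.33 and 2.17 CPM; −0.55, adjusted p = 0.0214, 3 of 3 libraries). That value no longer passed without the WT library (−0.64), without the *sGsn-/-* library (−0.53), with library size alone (−0.41) or without doublets (−0.41). In *C1qa* barcodes *Tlr9* overlapped the cDC1s (−0.21, adjusted p = 0.360, lower in 2 of 3 libraries), and it passed the threshold with at least 1 UMI of the marker whatever the others (−0.46). *Tlr4* was highest in *C1qa* barcodes, at 11.4, 13.1 and 12.3 CPM against 3.37, 3.07 and 3.36 CPM in cDC1s (1.75, adjusted p = 8.51e-09, 3 of 3 libraries). *Siglech* barcodes were lower in *Tlr4* (−2.04, adjusted p = 0.00147, 3 of 3 libraries), from 5 UMIs. *Cd209a* barcodes were higher (0.37, adjusted p = 0.0421, 3 of 3 libraries), but the threshold was no longer passed when any 1 library was left out (0.38 without WT, 0.40 without *sGsn-/-* and 0.28 without *sGsn-/- Clec9a-/-*), by DESeq2 (0.37), without the filter (0.37) or without doublets (0.30).

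*Unc93b1* was at 278, 270.0 and 270.2 CPM in cDC1s, at 347, 354 and 378 CPM in *Siglech*, at 252, 235 and 251 CPM in *C1qa* and at a mean of 196 CPM in *Cd209a* barcodes, with no overlap with the cDC1s. NK barcodes held 37.9, 41.2 and 52.6 CPM. The fall was −0.62 in *Cd209a* (adjusted p = 3.12e-05) and −0.30 in *C1qa* barcodes (adjusted p = 0.0102), each in 3 of 3 libraries. In *C1qa* barcodes it no longer passed without the *sGsn-/-* library (−0.30) or with library size alone (−0.15). *Siglech* barcodes gave 0.05 (adjusted p = 0.733, higher CPM in 3 of 3 libraries), which passed the threshold with library size alone (0.40) and without doublets (0.23), and passed it in the other direction with the looser marker rules (−0.45 and −0.29). Without the *sGsn-/- Clec9a-/-* library the value was −0.00.

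Both adaptors were highest in cDC1s. *Ticam1* was at 13.5, 12.3 and 13.4 CPM in cDC1s and at most 8.32 CPM in *Cd209a*, 7.85 CPM in *Siglech* and 8.99 CPM in *C1qa* barcodes, with log2 fold changes of −0.84 (adjusted p = 3.81e-06), −1.33 (adjusted p = 4.54e-05) and −0.80 (adjusted p = 5.68e-06). *Myd88* was at 120.0, 110.4 and 113 CPM in cDC1s, and at 88.4, 85.3 and 91.5 CPM in *Cd209a*, at 78.3, 76.7 and 86.3 CPM in *Siglech* and at 60.1, 61.2 and 64.2 CPM in *C1qa* barcodes. None of these libraries overlapped the cDC1s. The log2 fold change of *Myd88* was −0.51 for *Cd209a* (adjusted p = 1.22e-05), −0.86 for *Siglech* (adjusted p = 5.42e-07) and −1.04 for *C1qa* barcodes (adjusted p = 2.08e-09). Each of these values for the adaptors was in 3 of 3 libraries. By state, mean *Myd88* was 38.6 CPM in cluster 8, below the *Cd209a*, *Siglech* and *C1qa* barcodes. In early cells it was 77.2 CPM, below the means of *Cd209a* (88.4 CPM) and *Siglech* barcodes (80.4 CPM). Mean *Ticam1* in early cells, 7.34 CPM, was below *Cd209a* (8.05 CPM) and *C1qa* barcodes (8.42 CPM). For each adaptor the remaining states had higher means than any of these classes. *Irak4* was lower in *Siglech* barcodes (−0.50, adjusted p = 0.00233, 3 of 3 libraries), at 24.9, 23.5 and 21.1 CPM against 27.2, 26.1 and 24.4 CPM with an overlap of ranges, but not past the threshold with library size alone (−0.15) or with the looser marker rules (−0.25 and −0.11). In *Cd209a* and *C1qa* barcodes *Irak4* gave 0.12 (adjusted p = 0.184, higher in 3 of 3 libraries; past the threshold with library size alone, 0.27) and −0.06 (adjusted p = 0.525, CPM higher in 2 of 3 libraries), and the latter was 0.10 with library size alone.

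**Figure D3:**
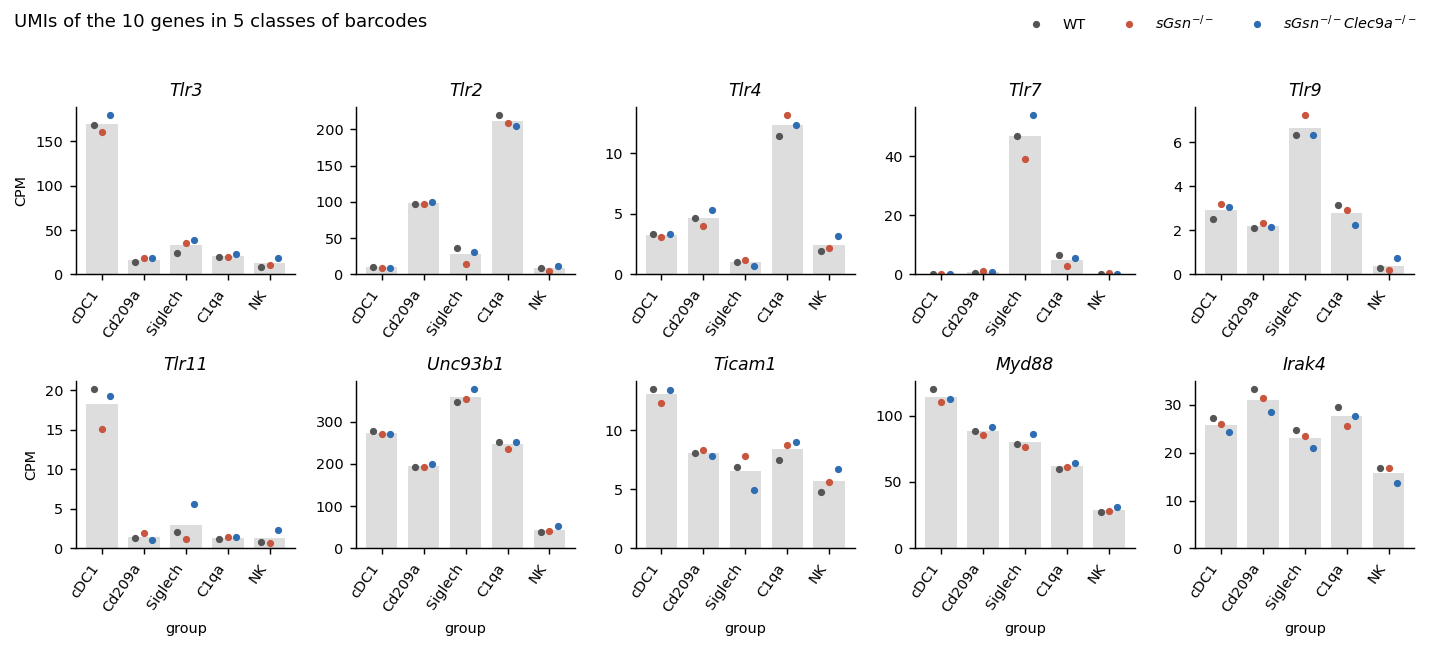
Level of each of the 10 members in CPM (y axis, from 0) in cDC1s and in barcodes outside the deposited table with *Cd209a*, *Siglech*, *C1qa* or NK markers, with bars for the mean of 3 libraries and points for the libraries. *Tlr3* and *Tlr11* peaked in the cDC1s of clusters 0 to 10 as a group, *Tlr7* in *Siglech* barcodes (39.2 to 54.0 CPM) and *Tlr2* in *C1qa* barcodes (204 to 220 CPM).

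The pathway around the members also differed by class. Of 6 other Toll-like receptors tested, 4 were higher and 2 lower in *Cd209a* barcodes, 5 and 1 in *C1qa* barcodes, and 2 and 1 in *Siglech* barcodes. *Tlr5*, *Tlr8* and *Tlr6*, with 1, 6 and 39 UMIs in cDC1s, were so scarce there that they could hardly be counted as lower. Of all genes 29.5% were higher and 25.8% lower in *Cd209a*, 32.7% and 30.5% in *C1qa*, and 21.6% and 23.3% in *Siglech* barcodes, beside this list and those that follow. *Tlr8*, a further endosomal receptor, rose to 9.81 CPM in *C1qa* (6.73) and 2.09 CPM in *Cd209a* barcodes (4.51) from 6 UMIs in cDC1s, and *Tlr1*, a partner of TLR2, rose in both (3.28 and 2.75). *Tlr5* was at 1.07, 1.62 and 1.99 CPM in *Cd209a*, *Siglech* and *C1qa* barcodes, and the 1 UMI in cDC1s gives no firm fold. *Tlr12* was lower in *Cd209a* (−2.58) and *C1qa* barcodes (−3.07). In *Siglech* barcodes *Tlr12* was higher (0.74), but no longer passed without the WT library (0.73) or the *sGsn-/- Clec9a-/-* library (0.63) or with the looser marker rules, and *Tlr13* was lower (−2.37). Co-receptors were higher in 2 and lower in 3 of 5 for *Cd209a*, 3 and 2 for *C1qa*, and 1 and 3 for *Siglech* barcodes, with *Cd14* at 1158 CPM in *C1qa* barcodes against 41.4 CPM in cDC1s (4.65). All genes named for these classes moved their way in 3 of 3 libraries.

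Endosomal genes were higher in 10 of 13 in *Cd209a*, 10 of 13 in *Siglech* and 8 of 13 in *C1qa* barcodes, and lower in 3, 1 and 1. The exonuclease gene *Pld3* rose in each (3.93, 4.50 and 5.23), and the cathepsin gene *Ctsl* reached 525 CPM in *Siglech* barcodes against 15.0 CPM in cDC1s (4.78). Among adaptor and signalling genes more were lower than higher, 4 of 21 higher and 11 lower in *Cd209a*, 2 and 9 in *Siglech*, and 4 and 11 in *C1qa* barcodes. *Ticam2*, the bridge from TLR4 to TRIF, was among the higher ones in each (3.34, 1.69 and 3.69), and *Peli1* among the lower ones (−1.47, −1.12 and −1.40). Inhibitors were higher in 4, 2 and 4 of 8 and lower in 3, 3 and 3, with *Irak3*, an inactive relative of IRAK4, at 2.86 in *Cd209a* and 3.84 in *C1qa* barcodes and *Sigirr* lower in each (−0.64, −1.15 and −1.72). The median of the adaptor list in *Siglech* barcodes, −0.21, was 0.14 with library size alone, and that of the inhibitors, −0.05, was 0.29.

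Genotypes rest on 1 library each, so their ratios have no test, and the exact conditional intervals cover counting error only. *Tlr11* in cDC1s was at 20.2 CPM in WT, 15.2 in *sGsn-/-* and 19.4 in *sGsn-/- Clec9a-/-*. The ratio of *sGsn-/-* to WT was 0.751 (0.658 to 0.855) and that of *sGsn-/- Clec9a-/-* to *sGsn-/-* was 1.28 (1.11 to 1.48). With clusters weighted equally these were 0.802 and 1.14. On the log2 scale the first is −0.41, where 95% of 2519 genes at 50 CPM or more lay within 0.24 either way, a set that *Tlr11* itself is too low to join. *Tlr3* gave 0.953 (0.914 to 0.994), 1.12 (1.07 to 1.17) and, for *sGsn-/- Clec9a-/-* to WT, 1.06 (1.02 to 1.11). *Myd88* gave 0.919 (0.875 to 0.967) for *sGsn-/-* to WT and 0.938 (0.891 to 0.987) for *sGsn-/- Clec9a-/-* to WT, and *Irak4* gave 0.895 (0.802 to 0.998) for the latter. With clusters weighted equally the ratios were 0.992, 1.07 and 1.06 for *Tlr3*, 0.953 and 0.941 for *Myd88* and 0.857 for *Irak4*. On the log2 scale *Tlr3* (−0.07, 0.16 and 0.09) and *Myd88* (−0.12 and −0.09) lay within the range of 95% of genes at 50 CPM or more, which was 0.24 for *sGsn-/-* to WT, 0.29 for *sGsn-/- Clec9a-/-* to *sGsn-/-* and 0.31 for *sGsn-/- Clec9a-/-* to WT, either way. All other ratios of the members had an interval that held 1.

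By the shape of their levels over the 11 clusters, other genes were most like the members as follows, by Pearson's r of log2 levels among 6523 genes, without a test since clusters share libraries and are not independent replicates. *Tlr3* was nearest to *Rgs14* (0.963), *Fzd1* (0.960) and *Evl* (0.959). *Tlr11* was nearest to *Btla*, *Cyb5r1* and *Fam149a* (0.979, 0.979 and 0.976) and *Unc93b1* to *Pak1*, *Tifab* and *Ap1s3* (0.982, 0.965 and 0.963). *Myd88* came closest to *Dhrs9*, *Evi2* and *Slc25a45* (0.959, 0.939 and 0.926), *Irak4* to *Tnks*, *Itch* and *Lman2l* (0.948, 0.935 and 0.935), and *Ticam1* to *Fgd6*, *Chsy3* and *Dusp18* (0.924, 0.923 and 0.920). *Tlr2* had the weakest likeness, to *Zeb2*, *Tgfb1* and *Camkk2* (0.848, 0.848 and 0.819). *Tlr4*, *Tlr7* and *Tlr9* were under 10 CPM and were not used.

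Promoters are shown for *Tlr3*, *Tlr11*, *Tlr2* and *Myd88*, the 4 members that carry a searched motif. The set of RefSeq promoters used here, for GRCm38.p6, held 7 of the 10 members and lacked *Tlr4*, *Tlr7* and *Unc93b1*. The 250 bases before each RefSeq start were searched on both strands for GAAANNGAAA (an interferon-stimulated response element, ISRE), GGAANNGAAA (an ETS and IRF composite element) and GGGNNNTTCC (an NF-κB element), motifs chosen after the data were seen. These were present in 2.98%, 2.30% and 4.65% of 32851 promoters. Capitals mark the motif, an NF-κB element in *Tlr3* (chr8:45410381-45410630, minus strand) and *Tlr2* (chr3:83841609-83841858, minus strand) and an ISRE in *Tlr11* (chr14:50357664-50357913, plus strand) and *Myd88* (chr9:119340019-119340268, minus strand), each on the strand of its gene and beginning 211, 173, 122 and 40 bases before the start. The composite element was in 0 of 7. RefSeq and GENCODE place some starts differently: by the GENCODE positions given above, the stretches of *Tlr3* and *Myd88* lie within the genes and that of *Tlr2* overlaps its gene in part. A match describes the letters and is not a bound site.
Tlr3: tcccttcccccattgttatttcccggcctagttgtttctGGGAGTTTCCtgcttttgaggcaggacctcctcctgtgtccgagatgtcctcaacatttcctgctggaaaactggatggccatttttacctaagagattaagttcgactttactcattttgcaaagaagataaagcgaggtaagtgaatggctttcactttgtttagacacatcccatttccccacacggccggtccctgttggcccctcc
Tlr2: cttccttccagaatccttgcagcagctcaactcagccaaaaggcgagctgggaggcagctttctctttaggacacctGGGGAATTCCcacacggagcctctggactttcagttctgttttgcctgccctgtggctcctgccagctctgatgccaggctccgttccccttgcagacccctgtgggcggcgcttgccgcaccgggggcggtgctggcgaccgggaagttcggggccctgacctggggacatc
Tlr11: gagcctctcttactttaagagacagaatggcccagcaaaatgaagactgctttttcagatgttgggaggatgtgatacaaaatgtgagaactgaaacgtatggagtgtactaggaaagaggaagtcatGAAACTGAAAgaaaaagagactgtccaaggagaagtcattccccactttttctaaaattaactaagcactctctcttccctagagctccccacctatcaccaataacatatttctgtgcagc
Myd88: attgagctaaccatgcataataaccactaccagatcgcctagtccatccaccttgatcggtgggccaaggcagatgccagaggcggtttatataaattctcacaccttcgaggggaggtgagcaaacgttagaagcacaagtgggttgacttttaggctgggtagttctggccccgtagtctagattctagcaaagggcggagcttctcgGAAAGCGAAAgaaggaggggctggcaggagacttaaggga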

How the data were processed

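The deposited matrices hold unnormalised UMI counts, which the authors made for 3 libraries with Cell Ranger 6.0.1 on mm10, and a table giving the cluster of each cDC1. Counts were summed per library and group in Python 3.11.15 (numpy 2.4.6, pandas 2.3.3, scipy 1.17.1, matplotlib 3.10.9) and compared in R 4.3.3 with edgeR 4.0.16 (TMM factors, filterByExpr, glmQLFit and glmQLFTest, Benjamini-Hochberg adjustment over all genes tested, threshold 0.05). State names are those the study gives to the deposited clusters, checked on *Ccr7*, *Il12b*, *Cxcl9*, *Isg15*, *Nfkbiz* and *S100a4*. Barcodes outside the table with at least 200 genes and a mitochondrial share up to the mean plus 2 SD (17.5%) were classed by at least 3 UMIs of *Cd209a*, *Siglech* or *C1qa* and fewer than 3 of the others. Under 200 genes were found in 54 barcodes, and 1265 were over the mitochondrial cut. Of the 24403 barcodes outside the table, 23138 passed both filters. All members are named, and of each pathway list at most 3 genes per direction and comparison, those past the threshold with the largest log2 fold change; the 3 genes most like a member were taken among genes with a mean of at least 10 CPM, with 1 CPM added before logarithms. Members and lists were chosen with earlier results of these data known.

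Alternatives were the library as a block, library size without TMM factors, DESeq2 1.42.0, all genes kept whatever their counts, omission of 1 library at a time, cells reassigned to the nearest cluster mean of the other libraries without the members and pathway genes (2000 variable genes; 87.9% kept their state), and, as no doublet caller was run, removal of barcodes over 2 times the median UMI count of their library and of cDC1s with 3 or more UMIs of *Cd209a*, *Siglech*, *C1qa* or *Nkg7*. The looser marker rules took at least 1 UMI of the marker, with 0 of the other 2 or whatever the others. The deviations of a library from the means of the 2 groups compared correlated at −0.0025 to 0.384 over 27 pairs, 18 of them over 0.1, so that the library as a block is given as an alternative. On simulated counts the test recovered 99% of genes changed by 1 on the log2 scale for cluster 8 against resting cells (7987 genes) and 96% for *Siglech* barcodes against cDC1s (11779 genes). The changed genes were drawn only from those with enough expected UMIs in the smallest group and library. *Tlr2*, *Tlr11*, *Ticam1* and *Irak4* were too low for this in the first case, and *Tlr4*, *Tlr7* and *Tlr9* in the second. All genes shared 1 dispersion, and no library effect was simulated, so recovery of low members was not measured. Gene positions are from GENCODE M21.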

Additional observations from a re-analysis of the deposited data

Results flagged for a closer look

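Results are given here where the effects of cluster 8 and cluster 10, each against the resting cells, differed by a direct test. They are also given where the lowest Poisson limit of a member in cluster 11, outside the comparisons, lay above the highest limit of the NK barcodes. *Myd88* differed between clusters 8 and 10 by −1.49 on the log2 scale, lower in cluster 8 in 3 of 3 libraries, in a test of that difference. *Unc93b1* differed between them by −0.38, also lower in 3 of 3 libraries, and this no longer passed the threshold without the WT library (−0.27), without the *sGsn-/-* library (−0.33), without doublets (−0.39) or with all genes kept in the test (−0.41). In cluster 11, the 60 cDC1s kept out of the comparisons, *Unc93b1* was at a mean of 552 CPM from 88 UMIs, with a lowest Poisson limit over its libraries of 164 CPM, above the highest limit of the NK barcodes, 57.4 CPM. Clusters 0 to 10, from 137 to 319 CPM, also lay above 57.4 CPM. The cells of cluster 11, which the paper describes as likely dying, had a median of 2348 UMIs against 13545.5 in the cDC1s compared. *Tlr3* was at 270 CPM from 44 UMIs there, and its lowest limit, 21.2 CPM, fell short of the rule (21.7 CPM). That rule was set after the values were seen.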

How the results depend on the processing

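Of 708 log2 fold changes of members under an alternative, 638 kept their direction and their side of the threshold, 39 no longer passed it, 12 newly passed it and 19 changed sign. Of 1534 for pathway genes past the threshold, at most 3 per list, direction and comparison, 1412 kept both, 121 no longer passed and 1 changed sign. As these genes were chosen for passing the threshold, none could newly pass it. The cause of these changes was not tested.

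The number of members past the threshold changed by more than 1.5 times, or from 0, in these cases. It was 1 in cluster 7 with library size alone (2 in the report), 1 in cluster 9 by DESeq2, without doublets and with reassigned cells (0 in the report), and 1 between clusters 8 and 10 without the filter (2 in the report). Smaller changes were 6 without the filter and 4 without doublets or with reassigned cells in early cells (5 in the report), 3 without the filter or with reassigned cells in cluster 7, 6 with library size alone in cluster 8 (5), 2 without doublets or with reassigned cells in cluster 10 (3), 3 with reassigned cells between clusters 8 and 10, 8 by DESeq2 or without the filter and 7 without doublets for *Cd209a* (9), 10 without doublets and 8 with the other marker rules for *Siglech* (9), and 7 with library size alone and 9 with 1 UMI whatever the others for *C1qa* barcodes (8). Leaving out a library gave 4 to 5 members for early cells, 0 to 3 for cluster 7 (0 without WT, 1 without *sGsn-/-*, 3 without *sGsn-/- Clec9a-/-*), 0 to 0 for cluster 9, 4 to 5 for cluster 8, 1 to 2 for cluster 10 (1 without WT), 1 to 2 between clusters 8 and 10 (1 without WT or *sGsn-/-*), 7 to 8 for *Cd209a*, 7 to 9 for *Siglech* and 7 to 8 for *C1qa* barcodes. All genes past the threshold numbered 2919 in early cells but 1505 without WT and 1908 without *sGsn-/-*, 1525 in cluster 7 but 861 and 847, 454 in cluster 9 but 225 and 221, 1285 in cluster 10 but 759 and 767, and 2408 between clusters 8 and 10 but 1581 without *sGsn-/-*. With the library (replicate block) the members past it were 5, 3, 0, 5, 3 and 2 for the comparisons of states and 9, 9 and 8 for the classes.

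Signs changed in cluster 7 for *Tlr2* (−0.15) without WT (0.0215, the others down to −0.27) and with reassigned cells (0.32) and for *Unc93b1* (0.09) with library size alone (−0.0157); in cluster 9 for *Tlr11* (−0.07) without *sGsn-/- Clec9a-/-* (0.15, the others down to −0.40) and *Myd88* (0.18) with reassigned cells (−0.0547); and in cluster 10 for *Myd88* (−0.03) by DESeq2 (0.0123), without WT (0.0463), without *sGsn-/-* (0.0290) but not without *sGsn-/- Clec9a-/-* (−0.11) and with reassigned cells (0.0473). Between clusters 8 and 10 they changed for *Tlr2* (0.17) with library size alone (−0.0282), without *sGsn-/- Clec9a-/-* (−0.27, up to 0.88 without *sGsn-/-*) and without doublets (−0.0688), and without *sGsn-/-* for *Tlr11* (−0.96, then 0.59, the others down to −1.74) and *Ticam1* (0.49, then −0.32, the others up to 1.01). In *Siglech* barcodes *Tlr9* (0.83) turned to −0.16 with 1 UMI of the marker and 0 of the others, *Unc93b1* (0.05) to −0.45 with that rule, −0.29 with 1 UMI whatever the others and −0.00494 without *sGsn-/- Clec9a-/-* (0.0769 without WT), and *Tlr12* (0.74) to −0.00877 with 1 UMI whatever the others. *Irak4* in *C1qa* barcodes (−0.06) turned to 0.10 with library size alone.

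Of 60 genotype ratios, 59 kept within their interval and *Tlr2* of *sGsn-/- Clec9a-/-* over WT, 0.918 (0.768 to 1.10), was 0.766 with clusters weighted equally. Thinning, which drew fewer UMIs per cell and left out cells below 4661 UMIs, moved 161 of 180 shares, and these changes were not told apart. Of the groups compared, cluster 10 had the fewest UMIs, 891318, and *Tlr11* rests on 5 of them.

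The limits of these data are few replicates and shared material. Each genotype has 1 library, made from a pool of mice, so differences between mice were not measured. The 3 libraries that serve as replicates of a state differ in genotype. UMIs show transcripts and neither protein nor signalling, and the part of free RNA in low counts was not measured. Classes outside the deposited table rest on 1 marker each.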
